A study of Homo sapiens with 8 samples.

Results

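The mitochondrial ribosomal protein genes were taken as all rows listed as mRNA whose symbol was MRPL or MRPS followed by a number and at most 1 letter from A to C. The rule found 78 genes of the 26716 in the table. By name, 49 of them belong to the large subunit of the mitochondrial ribosome (MRPL) and 29 to the small subunit (MRPS). All 78 had enough counts to be tested, with 106 to 4724 expected counts in any library.

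RNA was measured in HepG2 cells, a human hepatocellular carcinoma line, in 4 groups of 2 libraries each after 72 h. The group siIPO8-miR-552-3p received a miR-552-3p mimic, a synthetic copy of that microRNA, together with an siRNA against importin8. The group miR-552-3p received the mimic with a control siRNA. The group siIPO8-NC received the importin8 siRNA with a control mimic, and the group NC received both controls. Mimic and control mimic were used at 1 nM, and siRNA and control siRNA at 30 nM. The mimic libraries were told from the column names by an inference, that a 5 after the arm's letters stands for miR-552-3p, and every mimic comparison rests on it. The labels name no untransfected group, so transfection is shared by all 4. The series' title names FXR and LXR, nuclear receptors of bile acids and oxysterols, and disorders of liver sugar and lipid metabolism. The design asks how the mimic changes transcripts and whether that change differs under the importin8 siRNA.

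Mitochondrial ribosomes translate the few proteins encoded by mitochondrial DNA, all of them parts of oxidative phosphorylation. Their protein subunits are encoded in the nucleus, translated in the cytosol and imported. Many have counterparts in the bacterial ribosome and others were added in the mitochondrial lineage. The symbols date from early purifications, and structures have since placed MRPS18A and MRPS30 in the large subunit and MRPS36 in the 2-oxoglutarate dehydrogenase complex. The counts below follow the names.

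IPO8, the transcript of importin8 that the siRNA targets, had 7.65 and 8.30 CPM (counts scaled to library size) in siIPO8-miR-552-3p, against 25.4 and 24.6 CPM in miR-552-3p. It had 11.3 and 11.5 CPM in siIPO8-NC, against 34.7 and 33.3 CPM in NC. The log2 fold changes of -1.65 and -1.57 passed the test (adjusted p = 1.4e-06 and 4.5e-07, edgeR's quasi-likelihood test with Benjamini-Hochberg adjustment). IPO8 was also lower with the mimic than without it, by -0.44 on the log2 scale with control siRNA (adjusted p = 0.00083, the same test).

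The libraries held 21608563 to 22102373 expected counts each, of which the 78 genes took 0.271 to 0.331%. The NC libraries stood apart from the other 6 in 1 respect that enters every CPM. A single row with no usual gene symbol held 6.90 to 8.92% of a library in the other 3 groups, against 11.3 and 11.6% in NC. With that row left out before scaling, 58 members were called in miR-552-3p and 55 under the importin8 siRNA, each over NC, close to the 58 and 54 given below. The defining HepG2 markers summed to 37490 to 59480 CPM in every library, fibroblast markers to 0.482 to 4.76 CPM and blood cell markers to 0.660 to 2.198 CPM. Endothelial markers summed to at most 30.2 CPM in the other groups, against 75.3 and 81.1 CPM in NC. Most of the NC sum was PECAM1, at 68.6 and 72.4 CPM. VWF was also highest in NC, at 6.57 and 8.68 CPM. CDH5 went the other way, with 0.0900 and 0.0438 CPM in NC, against 2.96 and 2.79 CPM in siIPO8-NC. The part of these markers in the results was not tested. In bulk RNA, fewer cells of a kind and less RNA per cell cannot be told apart.

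The mature miR-552-3p is encoded on the minus strand at chr1:34669614-34669634 (RefSeq, GRCh38.p14). It is shown because its bases 2 to 8, the seed that pairs with target transcripts, set the letters searched for in the members. The seed is in capitals.
hsa-miR-552-3p: aACAGGUGacugguuagacaa

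The seed match is CACCTGT in the transcript. It was found in the 3′ UTR of 12 of the 78 members (15.4%), taking 1 principal GENCODE 29 transcript per gene, and in 16.9% of 13795 tested genes with a 3′ UTR. The members' 3′ UTRs were shorter, with a median of 401 bases against 1026 bases over those genes. The sites below belong to the 4 members with a match that were lower with the mimic in at least 1 siRNA arm. Each stretch runs 5′ to 3′ along the transcript, with the match in capitals.
MRPS11: aaatatctgtacCACCTGTcataat
MRPS18A: gagttcctcctgCACCTGTgctggg
MRPS25: aaggactttacaCACCTGTgtaaaa
MRPS27: cccccagggcccCACCTGTctcaca
A match is a description of the sequence. It shows neither binding nor repression.

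Levels between genes were compared as FPKM, which divides counts by transcript length and library size. The median level over the 49 large subunit genes was 32.6 and 32.5 FPKM in siIPO8-miR-552-3p, 33.1 and 31.5 FPKM in miR-552-3p, and 33.3 and 34.4 FPKM in siIPO8-NC, against 26.9 and 25.4 FPKM in NC. Over the 29 small subunit genes it was 25.6 and 26.2 FPKM in siIPO8-miR-552-3p, 25 and 23.6 FPKM in miR-552-3p, and 29.6 and 27.2 FPKM in siIPO8-NC, against 21.2 and 20.6 FPKM in NC. Both medians were lowest in the NC libraries. Averaged over the 8 libraries, MRPL37 (69.3 FPKM), MRPL52 (67.8 FPKM) and MRPL50 (66.5 FPKM) stood at the top of the large subunit. MRPL54 (11.9 FPKM), MRPL55 (12.7 FPKM) and MRPL20 (16 FPKM) stood at its foot. In the small subunit the top genes were MRPS15 (61.7 FPKM), MRPS6 (56.8 FPKM) and MRPS24 (48.7 FPKM), and the lowest were MRPS25 (2.37 FPKM), MRPS14 (6.60 FPKM) and MRPS36 (8.10 FPKM). MRPS6 reached its place through NC alone, as described below.

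The mimic with control siRNA changed 58 of the 78 members, with 41 higher and 17 lower in miR-552-3p than in NC. Over all 17715 genes tested, 58.4% passed the same test, 28.9% higher and 29.5% lower. Of the large subunit 29 of 49 genes rose and 9 fell, and of the small subunit 12 of 29 rose and 8 fell. The median log2 fold change was 0.33 for the large subunit and 0.11 for the small, beside -0.01 over all genes tested. Of the 46 members with a bacterial counterpart 27 rose and 9 fell, and of the 32 without one 14 rose and 8 fell.

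**Figure D1:**
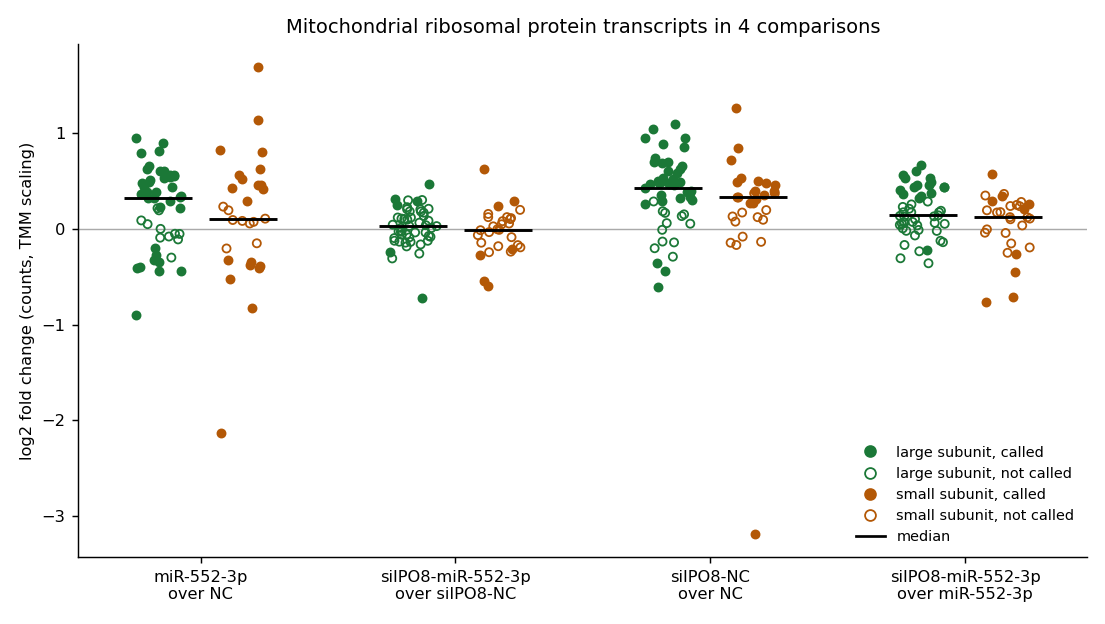
Log2 fold change of each mitochondrial ribosomal protein gene in 4 comparisons (y axis), by subunit (colour), with filled points for genes that passed the test and open points for those that did not. The black line is the median, which lay at 0.33 and 0.42 for the large subunit in the miR-552-3p and siIPO8-NC comparisons with NC, and at 0.03 for the mimic with importin8 siRNA.

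MRPS10, a small subunit protein with a bacterial counterpart, had the largest rise among the members. It stood at 119 and 109 CPM in miR-552-3p, against 36.3 and 34.1 CPM in NC. Both mimic libraries lay well above both NC libraries, with a log2 fold change of 1.69 (SE 0.09, adjusted p = 1.3e-07, edgeR). MRPS30, which sits in the large subunit despite its name, had 47.5 and 47.7 CPM in miR-552-3p, against 23.5 and 19.6 CPM in NC. The groups did not overlap, and the log2 fold change was 1.14 (SE 0.09, adjusted p = 2.7e-06, edgeR).

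MRPL18, the subunit known for carrying 5S rRNA into mitochondria, had 84.7 and 84.8 CPM in miR-552-3p, against 45.0 and 42.9 CPM in NC. The difference was 0.95 on the log2 scale (SE 0.06, adjusted p = 6e-07, edgeR). MRPL52, a subunit without a bacterial counterpart, had 48.3 and 42.1 CPM in miR-552-3p, against 24.6 and 23.8 CPM in NC. Its mimic libraries were again both above NC, by 0.90 (adjusted p = 1e-05, edgeR). Other members that rose were MRPS22, linked to inherited mitochondrial disease, by 0.82, MRPL1 by 0.81, MRPL24 by 0.79, MRPS18B by 0.63, MRPL44 by 0.54 and MRPS2 by 0.53 on the log2 scale (adjusted p at most 0.00028 each, edgeR).

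The members that fell included a head-to-head pair. MRPL46 and MRPS11 lie on opposite strands of chromosome 15, at 88459476 to 88467419 and 88467453 to 88480773 (GRCh38, GENCODE 29), with annotated starts 34 bases apart. MRPL46 had 11.3 and 12.3 CPM in miR-552-3p, against 23.4 and 20.7 CPM in NC. MRPS11, of the small subunit, had 12.4 and 10.2 CPM in miR-552-3p, against 19.5 and 20.5 CPM in NC. Both genes were lower in both mimic libraries, by -0.90 (adjusted p = 3.6e-05) and -0.82 (adjusted p = 0.00019) on the log2 scale with edgeR. MRPL46 also shares 724 exon bases on its own strand with another annotated coding gene, and MRPS11 shares 516 on the other strand with another annotated transcript.

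The promoter window of MRPL46 is shown because it reaches back into that of its partner, with 181 bases in common. RefSeq starts the genes 320 bases apart. The window runs from 250 bases before to 50 after the start, at chr15:88467339-88467638 on the minus strand (RefSeq, GRCh38.p14). Capitals mark the 10 letters searched for as the YY1 motif.
MRPL46: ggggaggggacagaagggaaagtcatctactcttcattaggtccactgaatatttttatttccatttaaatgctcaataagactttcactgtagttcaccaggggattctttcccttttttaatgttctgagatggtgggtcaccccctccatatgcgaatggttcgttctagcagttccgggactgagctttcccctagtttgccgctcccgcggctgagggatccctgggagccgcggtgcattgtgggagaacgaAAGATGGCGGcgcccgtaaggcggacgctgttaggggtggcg

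MRPS27, a small subunit protein that binds RNA, had 75.8 and 73.0 CPM in miR-552-3p, against 109 and 104 CPM in NC. The groups were apart, with a log2 fold change of -0.52 (adjusted p = 9.5e-05, edgeR). MRPL34 fell by 0.43, MRPL41 by 0.40, MRPS18A by 0.39, MRPS7 by 0.35 and MRPL23 by 0.28 on the log2 scale (adjusted p at most 0.007 each, edgeR). The fall of MRPL23 was not seen in FPKM, where the groups overlapped. It had 33.5 and 31.9 FPKM in miR-552-3p, against 31.5 and 35.1 FPKM in NC, and its call was lost with DESeq2. MRPS18A shares 604 exon bases with RSPH9 on the opposite strand, and the sources used here do not say whether strand was counted. RSPH9 itself had at most 0.188 CPM in any library.

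MRPS6 fell far more than any other member. It encodes a small subunit protein with a bacterial counterpart, at chr21:34073224-34143034 on the plus strand. Its level was 19.6 and 22.2 FPKM in siIPO8-miR-552-3p, 37.8 and 36.5 FPKM in miR-552-3p, and 17.8 and 17.9 FPKM in siIPO8-NC, against 167 and 136 FPKM in NC. NC was high and the other 3 groups were low, with no overlap. The log2 fold change from counts was -2.13 in miR-552-3p (SE 0.09, adjusted p = 1.9e-08) and -3.19 in siIPO8-NC (SE 0.09, adjusted p = 1.6e-08), both against NC with edgeR.

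MRPS6 shares 273 exon bases on the same strand with SLC5A3, the gene of a myo-inositol transporter that responds to osmotic stress, which is nested within MRPS6. SLC5A3 had 22.2 and 23.2 CPM in siIPO8-miR-552-3p, 42.8 and 49.3 CPM in miR-552-3p, and 21.5 and 25.3 CPM in siIPO8-NC, against 918 and 805 CPM in NC. It was thus high in the same 2 libraries, and its log2 fold change was -4.23 for miR-552-3p and -5.20 for siIPO8-NC, each over NC (adjusted p = 1.9e-09 and 3.5e-09, edgeR). An expected count is an estimate where a read matches more than 1 gene, so reads of MRPS6 and SLC5A3 in the shared exon cannot be told apart here. RefSeq gives both genes an identical promoter window, at chr21:34073328-34073627 on the plus strand (GRCh38.p14), which held none of the motifs searched.
MRPS6 and SLC5A3: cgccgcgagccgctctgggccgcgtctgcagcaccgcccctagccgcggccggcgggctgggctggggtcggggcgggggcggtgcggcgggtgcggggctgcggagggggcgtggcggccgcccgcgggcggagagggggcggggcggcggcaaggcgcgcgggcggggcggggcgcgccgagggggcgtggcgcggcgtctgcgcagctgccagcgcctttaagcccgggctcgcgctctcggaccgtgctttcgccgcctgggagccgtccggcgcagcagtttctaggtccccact

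**Figure D2:**
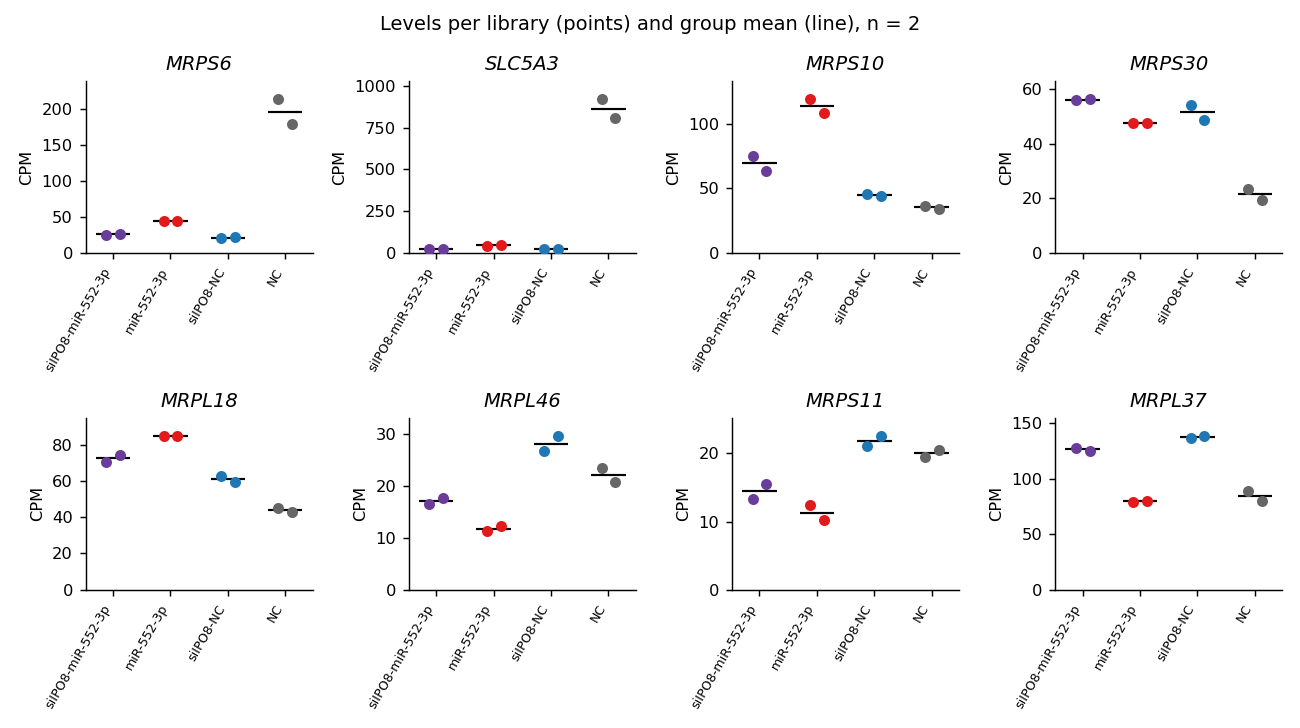
Level in CPM (y axis, from 0) of 7 members and of SLC5A3 in each library (points) and the group mean (line), n = 2 libraries per group. MRPS6 and SLC5A3 stood high in NC only, MRPS10 was highest in miR-552-3p at 119 and 109 CPM, and MRPL46 and MRPS11 were lowest there.

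Of the 39 members named by the rule for named genes and called in this comparison, 10 lost the call without at least 1 library, with adjusted p up to 0.26. They were MRPL10, MRPL16, MRPL49, MRPL54, MRPL55, MRPL58, MRPS14, MRPS18C, MRPS25 and MRPS36. MRPL58, a peptidyl-tRNA hydrolase built into the ribosome, had a log2 fold change of 0.29 (adjusted p = 0.044, edgeR). Without NC replicate 2 it was 0.17 (adjusted p = 0.26).

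The mimic with importin8 siRNA changed few members. Of the 78, 7 were higher and 6 lower in siIPO8-miR-552-3p than in siIPO8-NC, 16.7% in all, where 31.7% of all genes tested passed. The large subunit had 4 higher and 2 lower, and the small subunit 3 higher and 4 lower. The median log2 fold changes were 0.03 and -0.01. The count rested on single libraries. It was 8 without siIPO8-NC replicate 1 and 6 without siIPO8-NC replicate 2, siIPO8-miR-552-3p replicate 1 or siIPO8-miR-552-3p replicate 2.

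The 5 members that stayed past the threshold whichever library was left out were MRPS10, MRPL47, MRPL46, MRPS11 and MRPS25. MRPS10 had 75.1 and 63.3 CPM in siIPO8-miR-552-3p, against 45.7 and 44.3 CPM in siIPO8-NC. MRPL46 had 16.6 and 17.7 CPM in siIPO8-miR-552-3p, against 26.7 and 29.7 CPM in siIPO8-NC. MRPS11 had 13.3 and 15.6 CPM in siIPO8-miR-552-3p, against 21.1 and 22.5 CPM in siIPO8-NC. MRPS10 was higher in both mimic libraries, while MRPL46 and MRPS11 were lower in both, with log2 fold changes of 0.62, -0.72 and -0.60 (adjusted p = 0.00054, 0.00047 and 0.0036, edgeR). MRPL47 rose by 0.32 (adjusted p = 0.0057, edgeR).

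MRPS25, a small subunit protein without a bacterial counterpart, had 11.2 and 11.1 CPM in siIPO8-miR-552-3p, against 15.3 and 17.2 CPM in siIPO8-NC. It was lower in both mimic libraries, by -0.54 (adjusted p = 0.0047, edgeR). MRPS25 shares 1197 exon bases on the opposite strand with NR2C2. That gene had 65.1 and 67.9 CPM in siIPO8-miR-552-3p, against 67.8 and 74.3 CPM in siIPO8-NC. The part of NR2C2 in the counts of MRPS25 was not tested. Of the 12 members with the seed match shown above, 0 were higher and 3 lower (MRPS11, MRPS18A and MRPS25) in siIPO8-miR-552-3p over siIPO8-NC. Of the 66 without it 7 were higher and 3 lower, beside 15% higher and 16.7% lower of all genes tested. With control siRNA, 5 of the 12 were higher and 4 lower in miR-552-3p than in NC, beside 28.9% and 29.5% of all genes tested. Tested genes outside the members were not split by the seed match. The call of MRPS18A, at -0.21 (adjusted p = 0.039, edgeR), was lost without any 1 of the 4 libraries compared, with adjusted p of 0.12 to 0.17. MRPL18, MRPL23, MRPL52, MRPL53, MRPS22, MRPS6 and MRPS7 likewise lost their calls without at least 1 library, with adjusted p up to 0.23.

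The mimic effect itself was tested for a difference between the siRNA arms, as the effect with importin8 siRNA minus that with control siRNA. Of the 78 members 30 differed (38.5%), 4 with a positive and 26 with a negative difference, where 31.3% of all genes tested passed, 14.2% positive and 17.1% negative. The large subunit had 2 positive and 17 negative differences, and the small subunit 2 and 9. Medians were -0.21 and -0.14 on the log2 scale, beside -0.02 over all genes tested. The count was 19 without siIPO8-NC replicate 1 or without siIPO8-miR-552-3p replicate 1.

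**Figure D3:**
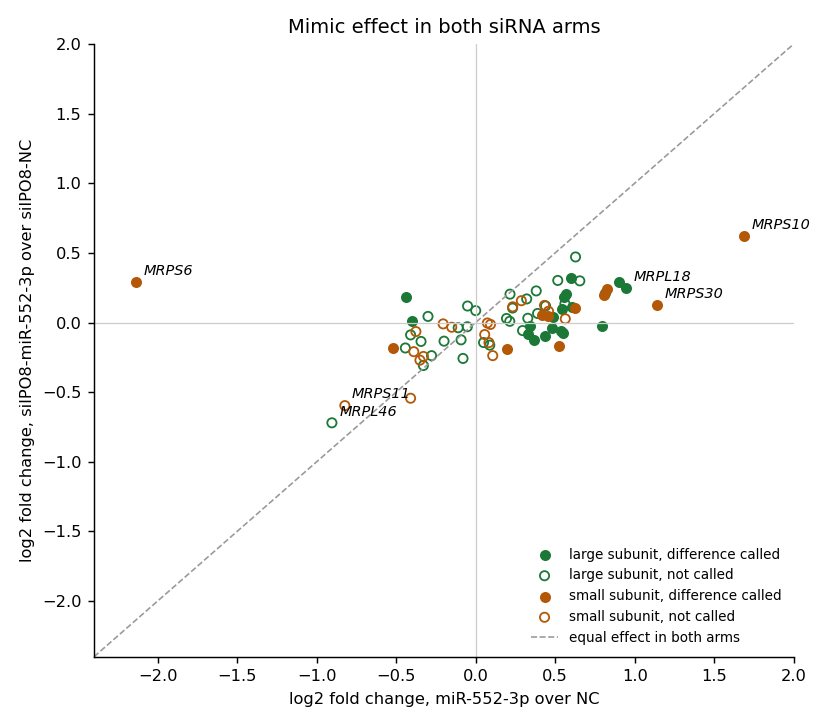
Log2 fold change by the mimic with importin8 siRNA (y axis) against that with control siRNA (x axis) for 78 members, with filled points where the difference between arms passed the test. Most filled points lie below the dashed line of equal effect, and MRPS6 stands alone at the left, with -2.13 on the x axis and 0.29 on the y axis.

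MRPS10 had the most negative difference, -1.07 (SE 0.12, adjusted p = 0.00015, edgeR), with the mimic effect at 0.62 with importin8 siRNA, against 1.69 with control siRNA. MRPS30 differed by -1.02 (adjusted p = 0.00023), MRPL24 by -0.82 (adjusted p = 0.0045), MRPL18 by -0.70 (adjusted p = 0.00023) and MRPS2 by -0.70 (adjusted p = 0.001), all with edgeR. In each of these the mimic effect was the smaller one with importin8 siRNA. For MRPL24 and MRPS2 it was -0.02 and -0.17 there, against 0.79 and 0.53 with control siRNA. NC enters this difference, so a low level in NC alone also makes it negative. MRPS30 had group means of 56.2 CPM in siIPO8-miR-552-3p, 47.6 CPM in miR-552-3p and 51.6 CPM in siIPO8-NC, against 21.6 CPM in NC. MRPL24 had 17.9, 14.7 and 18.2 CPM in the same order, against 8.46 CPM in NC. For MRPS10, MRPL18 and MRPS2 the mean in siIPO8-miR-552-3p lay below that in miR-552-3p. The part of NC in the differences was not tested. MRPS6 had a positive difference of 2.42 (adjusted p = 1.2e-06, edgeR), and MRPL34 one of 0.62 (adjusted p = 0.0038, edgeR). MRPL46 and MRPS11 did not pass, with differences of 0.18 (SE 0.14, adjusted p = 0.38) and 0.23 (SE 0.17, adjusted p = 0.35).

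The importin8 siRNA without the mimic raised most members. In siIPO8-NC 50 of the 78 were higher and 4 lower than in NC, where 47% of all genes tested passed, 25.4% higher and 21.6% lower. Of the large subunit 34 of 49 rose and 3 fell, and of the small subunit 16 of 29 rose and 1 fell. Medians were 0.42 and 0.33 on the log2 scale, and 0.00 over all genes tested. The NC libraries serve as control here as in the mimic comparison above, so the calls of both are not independent.

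MRPS30 led the rise, with 54.3 and 48.9 CPM in siIPO8-NC, against 23.5 and 19.6 CPM in NC. The groups were well apart, with a log2 fold change of 1.26 (SE 0.09, adjusted p = 3.3e-06, edgeR). MRPL24 had 20.1 and 16.3 CPM in siIPO8-NC, against 8.87 and 8.06 CPM in NC. MRPL1, part of the stalk region that sheds spent tRNA in bacterial ribosomes, had 28 and 25.1 CPM in siIPO8-NC, against 13.3 and 12.5 CPM in NC. Both were higher in both siRNA libraries, by 1.10 and 1.04 (adjusted p = 4.7e-05 and 9.1e-06, edgeR).

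MRPL39 and MRPL9 followed with 0.95 each, MRPL13 with 0.88, MRPL42 with 0.86, MRPS22 with 0.85, MRPL11 with 0.74 and MRPS35 with 0.72 (adjusted p at most 0.00053 each, edgeR). Next came MRPL37 and MRPL3 with 0.70 each, MRPL50 with 0.69 and MRPL44, a subunit related to double-stranded RNA nucleases, with 0.66 (adjusted p at most 8.9e-05 each, edgeR). MRPL37, the large subunit gene with the highest mean FPKM, had 137 and 138 CPM in siIPO8-NC, against 89.1 and 80.2 CPM in NC. It did not pass with the mimic and control siRNA, at 79.1 and 79.7 CPM in miR-552-3p (log2 fold change -0.09, SE 0.06, adjusted p = 0.25, edgeR).

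The 4 members that fell were MRPS6, MRPL34, MRPL49 and MRPL41. MRPL34 had 29.2 and 31.4 CPM in siIPO8-NC, against 48.7 and 43.9 CPM in NC. Its siRNA libraries were both lower, by -0.61 (SE 0.09, adjusted p = 0.00025, edgeR). MRPL41 had 24.3 and 25 CPM in siIPO8-NC, against 33.7 and 29.3 CPM in NC, a log2 fold change of -0.35 (adjusted p = 0.008). Its call was lost without siIPO8-NC replicate 1 (adjusted p = 0.056), and that of MRPL49 without NC replicate 1 (0.076) or siIPO8-NC replicate 1 (0.1). In all, 11 of 33 named and called members lost their call without at least 1 library: MRPL17, MRPL28, MRPL41, MRPL46, MRPL49, MRPL54, MRPS10, MRPS24, MRPS25, MRPS36 and MRPS7.

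The importin8 siRNA in the presence of the mimic raised 21 members and lowered 5, 33.3% in all, where 33.5% of all genes tested passed. Among the large subunit 16 rose and 1 fell, and among the small subunit 5 rose and 4 fell. Medians were 0.14 and 0.12, beside -0.01 over all genes tested. MRPL37 had 127 and 125 CPM in siIPO8-miR-552-3p, against 79.1 and 79.7 CPM in miR-552-3p. It was higher in both libraries with siRNA, by 0.67 (SE 0.06, adjusted p = 3.8e-05, edgeR).

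MRPL16 rose by 0.60, MRPS18A by 0.58, MRPL46 by 0.54 and MRPL23 by 0.53 (adjusted p at most 0.0036 each, edgeR). MRPS10 fell, with 75.1 and 63.3 CPM in siIPO8-miR-552-3p, against 119 and 109 CPM in miR-552-3p, a log2 fold change of -0.72 (adjusted p = 0.00015, edgeR). MRPS21 fell by 0.45 (adjusted p = 0.002) and MRPS6 by 0.77 (adjusted p = 0.00014, edgeR). MRPL17, MRPL18, MRPL50, MRPS16, MRPS22, MRPS5 and MRPS7 lost their call without at least 1 library, with adjusted p up to 0.34. For MRPS7 this was siIPO8-miR-552-3p replicate 1 alone.

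**Figure D4:**
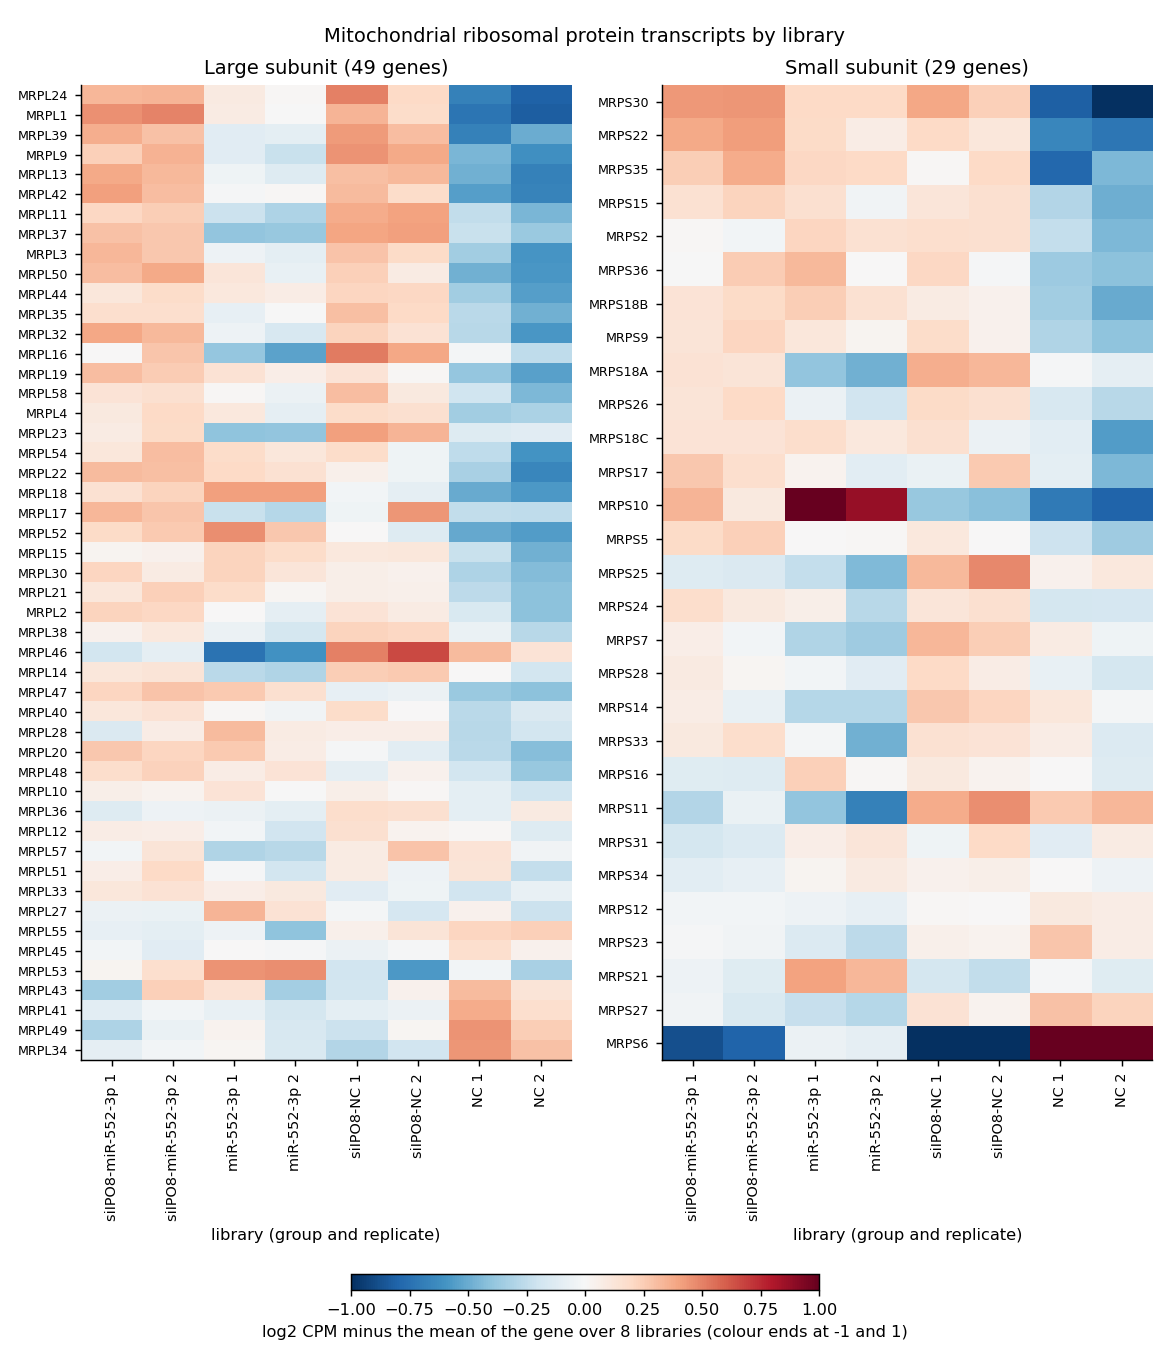
Log2 CPM of each member in each library minus the gene's mean over 8 libraries, with large subunit genes at the left and small subunit genes at the right, ordered by the fold change of siIPO8-NC over NC. The NC columns are blue for most rows, NC having the lowest group mean for 47 of the 78 members, and the rows of MRPS6, MRPL34, MRPL49 and MRPL41 run the other way.

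Members also differed in how far they moved at all. The distance between the highest and lowest group mean had a median of 0.55 on the log2 scale over the 78 members, was under 0.5 for 28 and over 1 for 7. Those 7 were MRPS6, MRPS10, MRPS30, MRPL46, MRPL1, MRPL24 and MRPS22. The group with the lowest mean was siIPO8-miR-552-3p for 6 members, miR-552-3p for 20, siIPO8-NC for 5 and NC for 47. This order is a description and was not tested.

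In 11 members none of the 4 comparisons passed. The share of all genes tested that passed in none is not given here, so whether 11 is many or few cannot be judged. The 11 were MRPL12, MRPL33, MRPL36, MRPL43, MRPL45, MRPL51, MRPS12, MRPS17, MRPS31, MRPS33 and MRPS34. MRPL12, the stalk protein that also binds the mitochondrial RNA polymerase, had 65.1 and 64.8 CPM in siIPO8-miR-552-3p, 60.7 and 54.3 CPM in miR-552-3p, and 69.1 and 63.5 CPM in siIPO8-NC, against 62.6 and 56.8 CPM in NC. The mimic libraries overlapped NC, and siIPO8-NC lay above NC by 0.15 on the log2 scale without passing (adjusted p = 0.14, edgeR). MRPS12, at the decoding centre, had 14 to 15.8 CPM over all 8 libraries. MRPL43 shares 1170 exon bases with SEMA4G on the opposite strand, and its FPKM moved against its counts. In siIPO8-NC over NC its log2 FPKM ratio was 0.47, while its log2 CPM ratio was -0.29, and no other member showed a gap of that size.

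Another 7 members went opposite ways under the mimic and under the importin8 siRNA, each against NC. By the same calls 35 members were higher in both and 4 lower in both. The share of all genes tested that went opposite ways is not given here, so whether 7 is many or few cannot be judged. MRPL14, MRPL16, MRPL23, MRPL46, MRPS7, MRPS18A and MRPS25 were called lower in miR-552-3p and higher in siIPO8-NC. MRPS18A had 28.6 and 26.9 CPM in miR-552-3p and 48.2 and 47.3 CPM in siIPO8-NC, against 37.3 and 35.3 CPM in NC. The 3 groups did not overlap, with log2 fold changes of -0.39 and 0.40 (adjusted p = 0.00079 and 0.00087, edgeR). Its paralogs did not share that order. MRPS18B had 82.3 and 77.1 CPM in miR-552-3p and 73.2 and 71.2 CPM in siIPO8-NC, against 54.5 and 48.8 CPM in NC. MRPS18C had 18.2 and 17.3 CPM in miR-552-3p and 18 and 15.5 CPM in siIPO8-NC, against 15 and 10.9 CPM in NC. Several of these calls were weak. The fall of MRPL16 with the mimic was lost in 7 of 16 alternative runs, with a log2 fold change of -0.44 to -0.21. In siIPO8-NC the rise of MRPS25 was lost in 8 of 16 (0.25 to 0.41). There the rises of MRPL46 (0.27 to 0.43) and MRPS7 (0.20 to 0.32) were lost in 3 of 16 each. The lost runs included DESeq2 each time, NC replicate 1 left out for MRPL16, and NC replicate 2 left out for MRPS25, MRPL46 and MRPS7. With the mimic MRPL14 passed narrowly (adjusted p = 0.045, edgeR), and MRPL23 did not fall in FPKM beyond overlap.

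Summed over its genes, the large subunit had 2166 and 2202 CPM in siIPO8-miR-552-3p, 1975 and 1860 CPM in miR-552-3p, and 2167 and 2124 CPM in siIPO8-NC, against 1706 and 1551 CPM in NC. NC was the lowest group. The small subunit had 1108 and 1106 CPM in siIPO8-miR-552-3p, 1130 and 1060 CPM in miR-552-3p, and 1112 and 1084 CPM in siIPO8-NC, against 1111 and 1015 CPM in NC. These sums overlapped. MRPS6 alone made up 19.1 and 17.6% of the small subunit's sum in NC and 1.90 to 4.16% elsewhere.

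Without MRPS6, left out after its values were seen, the small subunit summed to 1083 and 1079 CPM in siIPO8-miR-552-3p, 1085 and 1016 CPM in miR-552-3p, and 1091 and 1062 CPM in siIPO8-NC, against 898 and 837 CPM in NC. NC was then lowest, as for the large subunit. The ratio of large to small sums was 1.96 and 1.99 in siIPO8-miR-552-3p, 1.75 and 1.76 in miR-552-3p, and 1.95 and 1.96 in siIPO8-NC, against 1.53 and 1.53 in NC. Without MRPS6 it was 2 and 2.04 in siIPO8-miR-552-3p, 1.82 and 1.83 in miR-552-3p, and 1.99 and 2 in siIPO8-NC, against 1.90 and 1.85 in NC. Without MRPS6, then, the ratio was below NC in miR-552-3p and above it in both groups with importin8 siRNA.

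**Figure D5:**
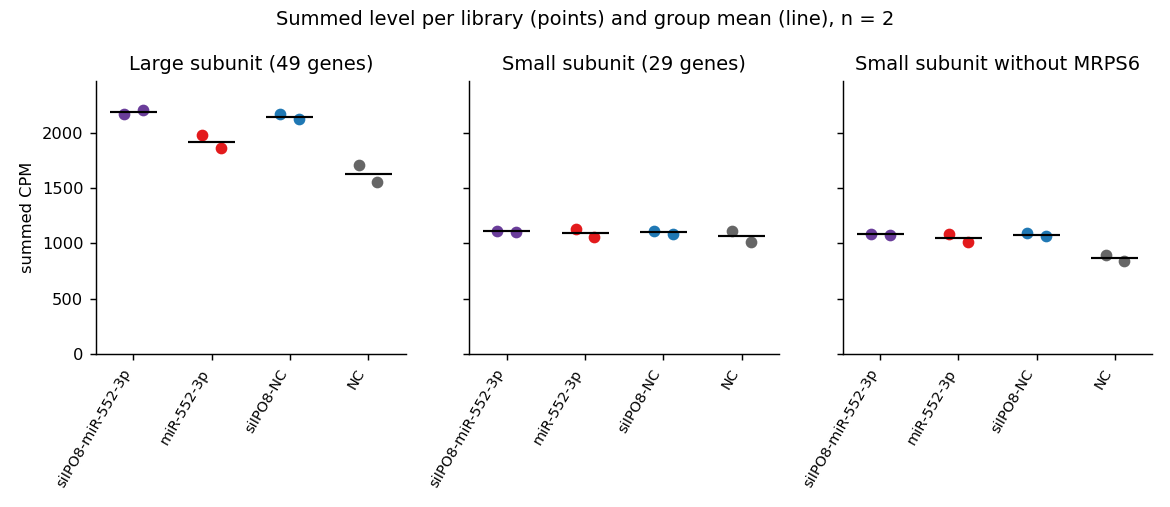
Summed CPM (y axis, from 0) of the large subunit, the small subunit and the small subunit without MRPS6 in each library (points) and the group mean (line), n = 2 libraries per group. The small subunit is level across groups with MRPS6 and lowest in NC without it, at 898 and 837 CPM.

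Promoter windows of 300 bases were found in RefSeq for 70 of the 78 members. The letters CCGGAAG of the ETS motif, searched on both strands, stood in at least 1 window of 42.9% of these members, against 12.2% of all 27195 genes and 20.2% of tested genes. The YY1 letters, those in capitals in the MRPL46 window, searched alike, stood in 18.6% of members, against 1.47% of all genes and 2.82% of tested genes. The NRF1 motif, searched in a pair of 10-letter forms, stood in 4.29% of members (3 of 70), against 1.88% of all genes and 3.13% of tested genes. Over all genes tested, 25.4% were higher and 21.6% lower in siIPO8-NC over NC, and 28.9% and 29.5% in miR-552-3p over NC. With the mimic and importin8 siRNA, 15% of all genes tested were higher and 16.7% lower. For the importin8 siRNA in the presence of the mimic these shares were 17.3% and 16.2%. Tested genes outside the members were not split by these letters. Of the 13 members with the YY1 letters, 12 rose and 0 fell in siIPO8-NC over NC, and of the 57 without them 31 rose and 4 fell. In miR-552-3p over NC, 8 of the 13 rose and 2 fell, and of the 57 without them 27 rose and 14 fell. With the mimic and importin8 siRNA, 2 of the 13 rose and 2 fell, and in siIPO8-miR-552-3p over miR-552-3p 5 rose and 1 fell. The ETS letters did not follow the YY1 letters in every comparison. In siIPO8-NC over NC 16 of the 30 members with the ETS letters rose and 0 fell, while of the 40 without them 27 rose and 4 fell. In miR-552-3p over NC 16 of the 30 rose and 3 fell, and of the 40 without them 19 rose and 13 fell. With the mimic and importin8 siRNA 6 of the 30 rose and 1 fell, against 1 and 4 of the 40. In siIPO8-miR-552-3p over miR-552-3p 5 of the 30 rose and 4 fell, against 14 and 1 of the 40. A match is a description of the sequence and not a binding site.

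The promoter of MRPS10, the member that rose most with the mimic, held both the ETS and the YY1 letters. It lies at chr6:42217812-42218111 on the minus strand (RefSeq, GRCh38.p14), with both in capitals.
MRPS10: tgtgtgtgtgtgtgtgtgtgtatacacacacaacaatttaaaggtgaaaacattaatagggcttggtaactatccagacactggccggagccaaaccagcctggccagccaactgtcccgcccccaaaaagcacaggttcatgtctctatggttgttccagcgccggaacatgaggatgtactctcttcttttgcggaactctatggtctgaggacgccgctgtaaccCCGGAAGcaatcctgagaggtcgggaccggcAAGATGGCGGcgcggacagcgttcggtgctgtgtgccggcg
MRPL24, MRPL1, MRPL39 and MRPL9 had the largest rises with the importin8 siRNA after MRPS30, and their windows held none of the motifs searched. MRPS30, which rose most with the importin8 siRNA, held the YY1 letters 14 bases past its start, at chr5:44808697-44808996 on the plus strand.
MRPS30: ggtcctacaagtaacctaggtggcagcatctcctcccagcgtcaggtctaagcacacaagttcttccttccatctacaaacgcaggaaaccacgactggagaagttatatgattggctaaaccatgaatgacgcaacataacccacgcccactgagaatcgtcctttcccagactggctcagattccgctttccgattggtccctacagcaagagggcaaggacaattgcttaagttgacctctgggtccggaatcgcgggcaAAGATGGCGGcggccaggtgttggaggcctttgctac

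Other genes of the mitochondrial translation system are given by the same counts. Over all genes tested, 28.9% were higher and 29.5% lower in miR-552-3p than in NC, and 25.4% and 21.6% in siIPO8-NC. All 5 mitoribosome subunits that carry other names were higher in miR-552-3p than in NC, led by DAP3 of the small subunit at 0.90 (adjusted p = 4.7e-06, edgeR). In siIPO8-NC 3 of the 5 were higher, led by PTCD3 at 0.67 (adjusted p = 4.7e-05, edgeR). Of 16 translation factors 9 were higher and 2 lower in miR-552-3p than in NC. The largest change was a fall, that of C12orf65, by -2.77 on the log2 scale. It had 6.18 and 6.22 CPM in miR-552-3p, against 40.5 and 44.0 CPM in NC. The largest rise was that of RMND1, at 1.05, and GFM1, an elongation factor, was at 0.94 (adjusted p = 2.6e-06, edgeR). Of 25 assembly factors 6 were higher and 9 lower in miR-552-3p, and 9 higher and 4 lower in siIPO8-NC. Among these MPV17L2, which helps to assemble the ribosome, was at -2.34 in miR-552-3p over NC (adjusted p = 2.7e-06, edgeR).

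Of 6 genes of mitochondrial transcription, 1 was higher and 1 lower in miR-552-3p than in NC. TFB2M, a transcription factor of the mitochondrial genome, was at 0.67 (adjusted p = 0.00024) and TFAM, which packages that genome, at -0.35 (adjusted p = 0.00096, edgeR). In siIPO8-NC 3 of the 6 were higher, with TFAM at 0.85 (adjusted p = 3.4e-06, edgeR). Of 9 transcriptional regulators, 3 were higher and 4 lower in miR-552-3p than in NC, and 3 higher and 1 lower in siIPO8-NC. Among them MYC had a log2 fold change over NC of 0.66 with the mimic and 1.09 with the importin8 siRNA (adjusted p = 1.5e-05 and 1.1e-06, edgeR). YY1 had 63.3 and 63.6 CPM in miR-552-3p and 82.4 and 79.0 CPM in siIPO8-NC, against 86.0 and 82.8 CPM in NC. PPARGC1A, a coactivator of mitochondrial genes, was at -1.16 in miR-552-3p over NC (adjusted p = 2e-05, edgeR).

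The proteins of the cytosolic ribosome form the nearest comparison, with 81 genes tested. In miR-552-3p over NC 63 were higher and 3 lower (median 0.48), and in siIPO8-NC over NC 37 were higher and 1 lower (median 0.27). Of all genes tested 28.9% were higher and 29.5% lower in the former, and 25.4% and 21.6% in the latter. In siIPO8-NC 46.9% of the cytosolic genes were called in either direction, near the 47% of all genes tested. The mitochondrial members had the larger median in siIPO8-NC, 0.37, and the smaller in miR-552-3p, 0.26. In siIPO8-miR-552-3p over miR-552-3p 3 cytosolic genes were higher and 2 lower (median -0.07), against 21 and 5 of the mitochondrial members (median 0.14). With the mimic and importin8 siRNA 10 cytosolic genes were higher and 0 lower (median 0.14), against 7 and 6 mitochondrial members (median 0.01). For the difference of mimic effects 0 of the 81 were positive and 22 negative (median -0.33), against 4 and 26 of the 78 mitochondrial members (median -0.21). In these last comparisons, in the order given, 33.5, 31.7 and 31.3% of all genes tested were called. The shares were 6.17, 12.3 and 27.2% of the cytosolic genes and 33.3, 16.7 and 38.5% of the mitochondrial members. Whether the lists differ from each other was not tested.

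Neighbouring genes limit some values. By GENCODE 29, 41 of the 78 members share exon bases with another gene, 29 of them on the opposite strand, and 34 members have named pseudogenes. Of the 37 members with no shared exon bases, 23 rose and 6 fell in miR-552-3p over NC, and 25 rose and 1 fell in siIPO8-NC over NC. Of all genes tested 28.9% rose and 29.5% fell in the former comparison, and 25.4% and 21.6% in the latter. The selection of the 37 was made after the data were seen.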

How the data were processed

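Poly(A) RNA of 8 HepG2 libraries was sequenced, and libraries were grouped by their titles. The columns carry shorter names, and a 5 between an arm's letters and the replicate number was taken to mean miR-552-3p, which no label states. Per the file headers, the authors' tables give an expected count and an FPKM per gene and library, and the deposited FPKM were used for levels between genes. The submitters' processing notes name HISAT2 2.0.4, Bowtie2 2.2.5, RSEM 1.2.8 and GRCh38.p12, with no role stated. The sources used here do not say whether strand was used. A table of 4 of the libraries repeated values of the table of 8 and was not used. The labels speak of 2 experiments per group without saying whether these were separate cultures. The p-values therefore cover only the spread between the samples, and this spread may be technical. Within each group the replicates differed beyond sampling noise, with a chi-square of 4.30 to 9.80 per degree of freedom.

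Expected counts were rounded, filtered by filterByExpr (17715 genes kept) and scaled by TMM. All 8 libraries were fitted in edgeR 4.0.16 under R 4.3.3 with a mean per group, and contrasts were taken with its robust quasi-likelihood F test. Genes were called at an adjusted p under 0.05 (Benjamini-Hochberg over all genes tested). Standard errors are approximate, derived as the size of the log2 fold change divided by the root of F. The procedure was tested on simulated counts. Alternatives were DESeq2 1.42.0, limma-voom (limma 3.58.1), other scalings and filters, a replicate block and leaving out each library.

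The members, the lists and the rule for named genes were chosen with earlier results of these data known. The rule took, per comparison, the 4 called members that rose most and the 4 that fell most, given a mean of at least 100 counts, up to 8 called for the difference by adjusted p, the 3 highest and 3 lowest per subunit in FPKM, 21 members of known role, and up to 3 called genes of each related list. Other members named in the text were chosen after their values were seen. Positions, exon overlaps and 3′ UTRs are from GENCODE 29, and promoters and the miRNA from RefSeq.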

Additional observations from a re-analysis of the deposited data

Results flagged for a closer look

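The mimic effect differed between the siRNA arms, by the test of the difference itself (edgeR's quasi-likelihood test, Benjamini-Hochberg adjustment over all genes tested), for 20 of the named members. Values are the log2 effect with importin8 siRNA minus that with control siRNA, so the level in NC enters each of them. The difference was negative for MRPS10 (-1.07), MRPS30 (-1.02), MRPL24 (-0.82), MRPL18 (-0.70), MRPS2 (-0.70), MRPL52 (-0.61), MRPL1 (-0.60), MRPL44 (-0.60), MRPS22 (-0.58), MRPL28 (-0.53), MRPS18B (-0.52), MRPL39 (-0.51), MRPS15 (-0.41), MRPS16 (-0.39), MRPL50 (-0.37), MRPL47 (-0.28). It was positive for MRPS6 (2.42), MRPL34 (0.62), MRPL41 (0.41), MRPS27 (0.34). The differences of MRPL28, MRPL39, MRPL41, MRPL47, MRPL50, MRPS15, MRPS16 and MRPS27 lost their call without at least 1 library, with adjusted p up to 0.15. Reads in the exon that MRPS6 shares with SLC5A3 cannot be told apart between both genes.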

How the results depend on the processing

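No called value reversed under any alternative run. The count of members called for the mimic with importin8 siRNA (13) was 5 with DESeq2 and 24 with only the groups compared in the fit, and 19 for the difference of mimic effects with DESeq2, against 30. Leaving out each library in turn gave 47 to 55 members called for miR-552-3p over NC, 6 to 18 for siIPO8-miR-552-3p over siIPO8-NC, 43 to 54 for siIPO8-NC over NC, 19 to 34 for siIPO8-miR-552-3p over miR-552-3p and 19 to 33 for the difference. Over the same fits the small subunit's median log2 fold change ran from 0.0738 to 0.231, from -0.0371 to 0.0324, from 0.221 to 0.336, from 0.0898 to 0.202 and from -0.239 to -0.136. With upper-quartile scaling that median was 0.0456 for miR-552-3p and 0.263 for siIPO8-NC, each over NC. Among members with no shared exon bases 29, 3, 26, 12 and 14 were called, from 37 members. In the same order, 58.4, 31.7, 47, 33.5 and 31.3% of all genes tested passed. Without the row with the most counts, the large subunit's share of counts was 1.202 times that of NC in siIPO8-miR-552-3p, and the small subunit's 0.933 times in siIPO8-miR-552-3p and 0.986 times in siIPO8-NC. Without MRPS6 the small subunit's share was 1.17 (siIPO8-miR-552-3p), 1.16 (miR-552-3p) and 1.22 (siIPO8-NC) times that of NC. With FPKM rescaled to equal sums per library, the median level of the large subunit over NC was 1.14 (siIPO8-miR-552-3p), 1.11 (miR-552-3p) and 1.22 (siIPO8-NC), and that of the small subunit 1.13, 1.04 and 1.27 in the same order. The cause of these shifts was not tested beyond what each setting leaves out. The labels' replicate numbers do not pair the samples (correlations of -0.00335 to 0.0867 between same-numbered deviations), and with the replicate block 59, 17, 57, 32 and 32 members were called. Depth limits the members with the fewest counts, 106 in a library at the lowest.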
